A study of Homo sapiens with 10 samples.

Results

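DDIT4, DDIT4L, SESN1, SESN2, SESN3, CASTOR1, TSC1 and TSC2 encode proteins that hold back mTORC1, the kinase complex that promotes protein synthesis and cell growth. These 8 genes, of 20327 in each deposited table, were chosen by name as inhibitors of mTORC1 and found through their Ensembl identifiers. They were chosen with their levels in all 10 libraries already known, so their values are given as a description. Where counts of members called in fits over all genes are given, they set the members beside all genes and support nothing. RNA was sequenced from hTERT RPE-1 cells, a wild-type human line derived from retinal pigment epithelium and immortalised with telomerase, after 48 h in DMEM F-12 medium containing 0.1% FBS. One experiment set merbarone, a catalytic inhibitor of DNA topoisomerase II, at 200 µM for 30 min (3 libraries) against DMSO for 30 min (3 libraries). The other set merbarone at 200 µM for 2 h (2 libraries) against untreated cells (2 libraries), so its control held no vehicle. All groups shared the low-serum medium, and the line stands for 1 immortalised cell line only.

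mTORC1 works at the lysosome, where it needs both the small GTPase RHEB and the Rag GTPases. TSC1 and TSC2 form a complex that switches RHEB off, and DDIT4 (also called REDD1) and its relative DDIT4L (REDD2) act upstream of that complex. The sestrins SESN1, SESN2 and SESN3 and the arginine sensor CASTOR1 bind GATOR2, a complex on the branch that reports amino acids to the Rag GTPases, and SESN2 is known as a leucine sensor. DDIT4 and SESN2 are known to be transcribed under stress by ATF4, p53 or other factors, whereas TSC1 and TSC2 are known mainly for control of the proteins.

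The region before the transcription start was set out for 4 genes, because DDIT4 and SESN2 were the members furthest above their control at 2 h while their relatives DDIT4L and SESN3 were not. SESN1, the other sestrin, was 1.74-fold above its control at 2 h, and its sequence is not printed. The sequences are RefSeq's, 250 bases before the start, 5′ to 3′ on the gene's strand, at GRCh38.p14 positions chr10:72273674-72273923 (DDIT4, plus), chr1:28259268-28259517 (SESN2, plus), chr4:100190469-100190718 (DDIT4L, minus) and chr11:95232476-95232725 (SESN3, minus). Capitals mark matches to ACGTG or to the CCAAT box, which reads ATTGG on the other strand, and in DDIT4L to TATAAA.
DDIT4: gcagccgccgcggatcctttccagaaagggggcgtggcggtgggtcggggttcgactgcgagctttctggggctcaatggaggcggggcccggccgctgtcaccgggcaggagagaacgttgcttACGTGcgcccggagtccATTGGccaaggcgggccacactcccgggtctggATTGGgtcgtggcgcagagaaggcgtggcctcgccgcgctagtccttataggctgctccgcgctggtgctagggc
SESN2: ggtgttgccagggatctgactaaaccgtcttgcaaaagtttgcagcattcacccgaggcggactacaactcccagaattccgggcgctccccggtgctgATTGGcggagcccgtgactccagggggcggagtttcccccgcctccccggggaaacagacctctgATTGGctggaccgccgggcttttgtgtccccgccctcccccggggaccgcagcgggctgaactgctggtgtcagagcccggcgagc
DDIT4L: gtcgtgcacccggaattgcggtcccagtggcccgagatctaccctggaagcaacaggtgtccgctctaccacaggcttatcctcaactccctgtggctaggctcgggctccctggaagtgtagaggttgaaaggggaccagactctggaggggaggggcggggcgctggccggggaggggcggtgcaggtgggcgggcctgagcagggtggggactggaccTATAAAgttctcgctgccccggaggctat
SESN3: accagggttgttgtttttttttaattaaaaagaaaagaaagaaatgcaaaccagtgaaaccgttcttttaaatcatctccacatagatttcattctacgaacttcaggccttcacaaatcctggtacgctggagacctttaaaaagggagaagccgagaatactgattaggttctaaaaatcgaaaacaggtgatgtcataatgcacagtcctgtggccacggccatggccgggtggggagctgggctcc
Both strands were searched, and all 8 members matched RefSeq's table. DDIT4 held ACGTG, the core of the sites HIF1 is known to bind, once, and that match overlapped no other. DDIT4 and SESN2 each held 2 CCAAT boxes, the element known for NF-Y. Of 35114 promoter windows of this length, 18.5% held ACGTG, 32.0% held CCAAT and 9.53% held at least 2 CCAAT boxes. DDIT4L held a TATAAA element, found in 10.7% of windows. In the SESN3 window none of these letters was found, and its GC content was 42.8% against 68.8% for DDIT4, 65.6% for SESN2, 65.2% for DDIT4L and a median of 58% over all windows. Among the other members, the first TSC2 window held ACGTG on both strands at overlapping positions, and CASTOR1 and 2 of the 3 SESN1 windows held 1 CCAAT box each, so neither motif was found in DDIT4 and SESN2 alone. The core TGATGNAAN of the element that ATF4 is known to bind occurred in 3.13% of windows and, among the members, in 1 window of TSC2 alone. Letters of a p53 half-site occurred in 5.57% of windows and, among the members, in 1 SESN1 window, as GGACAAGTCT. The forkhead core GTAAACA occurred in 2.98% of windows and in no window of a member. Sequence further upstream or within the genes was not searched. These matches are a description of letters in a window and not of bound sites.

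Values are RPKM, reads scaled to the length of the gene and the depth of the library, and for most genes the kilobases were those of the whole gene, introns included. They were therefore compared between libraries for 1 gene. Fitted log2 differences, and their medians over genes, are on the scale of RPKM plus 1, which understates changes of low values. For levels between genes, the reads were instead scaled to the length of 1 transcript of each gene. Such values are called levels per kilobase of transcript. Whether reads in introns were counted is not given in the sources used here. If they were, these levels may be too high for genes with long introns, such as SESN1. Depth was 26633780 to 38225538 reads a library in the 30 min experiment and 11956652 to 13691014 in the 2 h experiment, and the 8 members had between 70 and 7101 reads in a library. Of 12 pigment epithelium markers, BEST1, OTX2 and PMEL averaged at least 1 RPKM in each group, RPE65 reached at most 0.0656 RPKM, and DCT was at 0 in every library. The summed pigment markers ranged from 9.14 to 11.9 RPKM in the 30 min experiment and from 25.6 to 29.4 in the 2 h experiment, and their part in the members' levels was not tested. Nothing in the labels says that libraries of a group came from separate cultures, so p-values measure only the spread between these libraries.

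DDIT4 lies on chromosome 10 at 74033678 to 74035794 (GRCh37, plus strand, ENSG00000168209). In the untreated libraries it measured 25.8 and 32.0 RPKM, and in the 2 libraries with merbarone for 2 h it measured 214 and 257 RPKM. Both treated libraries lay far above both untreated ones. The means were 28.9 ± 4.38 (SD, n = 2) and 235 ± 30.7 (SD, n = 2), an 8.14-fold ratio, and the ratios of single libraries ran from 6.67 to 9.95. The log2 difference on the scale of RPKM plus 1 was 2.98 ± 0.14 (SE), the 4th highest of 6620 genes tested. In these bulk libraries, more RNA in every cell and more cells that express the gene cannot be told apart.

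At 30 min DDIT4 showed no such separation. The DMSO libraries measured 4.01, 10.7 and 7.47 RPKM, and those with merbarone for 30 min measured 3.58, 9.73 and 8.91 RPKM. The groups overlapped, with means of 7.38 ± 3.33 and 7.41 ± 3.34 (SD, n = 3 each) and a log2 difference of -0.01 ± 0.42 (SE). Replicate 1 was the lowest library of both groups. Between libraries of the same replicate number, the log2 ratio of merbarone to DMSO was -0.16, -0.13 and 0.25.

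DDIT4L, on chromosome 4 at 101107027 to 101111939 (GRCh37, minus strand, ENSG00000145358), went the other way. It measured 6.55 and 5.62 RPKM in untreated libraries and 3.92 and 3.51 RPKM after merbarone for 2 h. Both treated libraries were below both untreated ones, with means of 6.08 ± 0.662 and 3.72 ± 0.291 (SD, n = 2 each), 1.64-fold lower after merbarone. The log2 difference was -0.58 ± 0.10 (SE). At 30 min it measured 1.57, 3.89 and 4.53 RPKM with DMSO and 1.82, 3.63 and 4.70 RPKM with merbarone. Those groups overlapped almost completely, and again replicate 1 was the lowest of each.

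Per kilobase of transcript, the pair shifted in makeup at 2 h. DDIT4 supplied 75.1% ± 4.86 (SD, n = 2) of the summed DDIT4 and DDIT4L level in untreated cells and 97.6% ± 0.495 (SD, n = 2) after merbarone for 2 h. At 30 min its share was 59.1% ± 6.71 with DMSO and 58.0% ± 4.58 with merbarone (SD, n = 3 each), closer together than the spread between libraries.

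**Figure D1:**
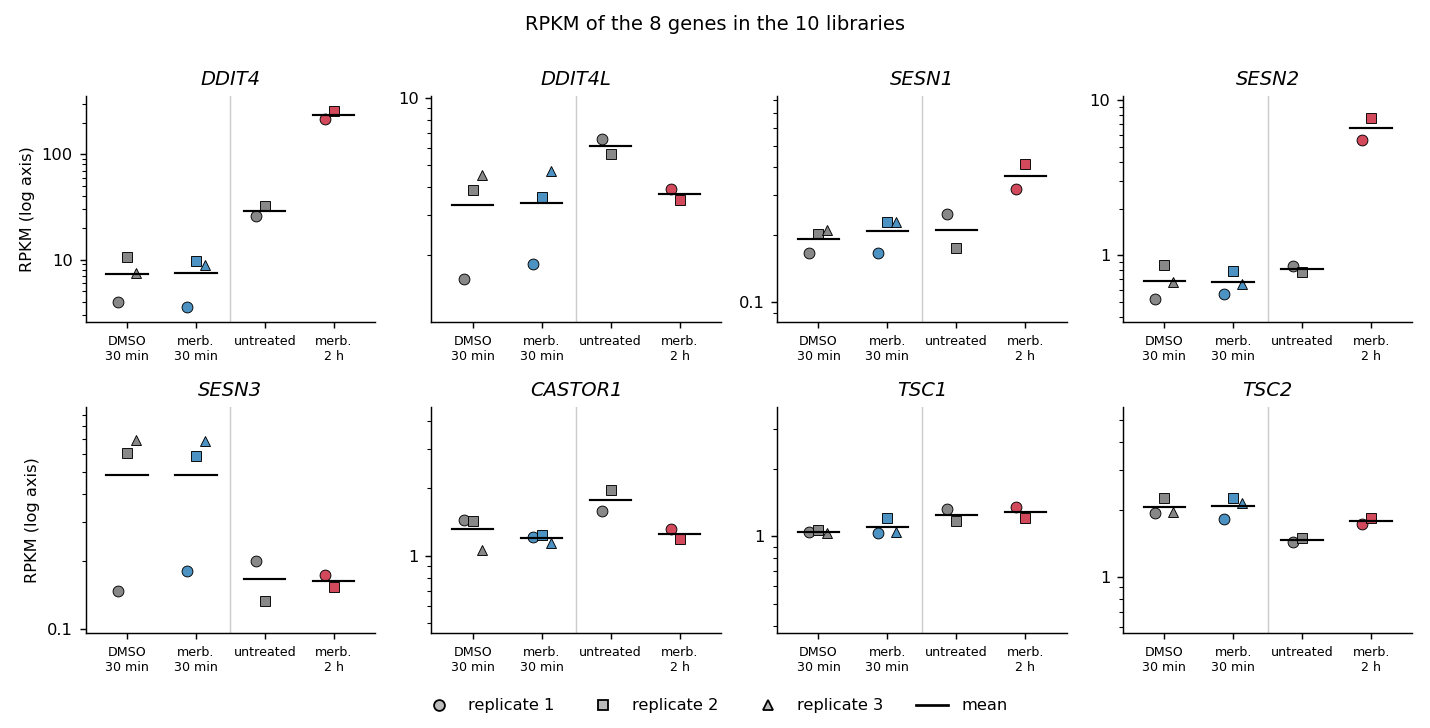
RPKM of the 8 members in each of the 10 libraries, 1 panel per gene with its own log axis; point shapes are replicate numbers and horizontal lines are group means. DDIT4 and SESN2 stand far above their untreated libraries after merbarone for 2 h, DDIT4L and CASTOR1 stand below, and at 30 min the groups overlap for all 8 genes.

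Among the sestrins, SESN2, on chromosome 1 at 28586029 to 28609002 (GRCh37, plus strand, ENSG00000130766), was the one with a ratio at 2 h close to that of DDIT4. It measured 0.853 and 0.783 RPKM in untreated libraries and 5.53 and 7.64 RPKM after merbarone for 2 h, from 215 to 2288 reads a library over all 10 libraries. The treated libraries lay well above the untreated ones and also differed from each other. The means were 0.818 ± 0.0495 and 6.59 ± 1.49 (SD, n = 2 each), an 8.06-fold ratio with single-library ratios from 6.49 to 9.76. On the scale of RPKM plus 1, which understates changes of low values, the log2 difference was 2.05 ± 0.12 (SE), the 11th highest of 6620, and the log2 ratio of the means themselves was 3.01. At 30 min SESN2 measured 0.520, 0.868 and 0.675 RPKM with DMSO and 0.564, 0.791 and 0.651 RPKM with merbarone, and these groups overlapped.

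SESN1, a p53-responsive sestrin on chromosome 6 at 109305512 to 109416049 (GRCh37, minus strand, ENSG00000080546), measured 0.248 and 0.175 RPKM in untreated libraries and 0.321 and 0.413 RPKM after merbarone for 2 h. Both treated libraries were above both untreated ones, with means of 0.212 ± 0.0514 and 0.367 ± 0.0649 (SD, n = 2 each), a 1.74-fold ratio with single-library ratios from 1.30 to 2.36. Its low RPKM goes with a gene span of 110538 bp against a transcript of 5664 bp, since it had 227 to 930 reads in each library. At 30 min it measured 0.166, 0.202 and 0.210 RPKM with DMSO and 0.166, 0.229 and 0.229 RPKM with merbarone, with overlap.

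SESN3, known as a FOXO-responsive sestrin, lies on chromosome 11 at 94898677 to 94965705 (GRCh37, minus strand, ENSG00000149212). It measured 0.200 and 0.134 RPKM in untreated libraries and 0.174 and 0.153 RPKM after merbarone for 2 h. The treated values lay between the untreated ones. At 30 min it measured 0.148, 0.609 and 0.699 RPKM with DMSO and 0.181, 0.590 and 0.687 RPKM with merbarone, so that in both groups replicate 1 was several times lower than replicates 2 and 3.

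Per kilobase of transcript, the summed sestrin level was 10.65 in untreated cells and 51.9 after merbarone for 2 h. SESN2 made up 51.4% ± 4.85 (SD, n = 2) of that sum in untreated cells and 84.1% ± 1.18 (SD, n = 2) after merbarone. At 30 min the sum was 11.65 with DMSO and 11.8 with merbarone, and the SESN2 share was 40.0% ± 5.96 and 38.6% ± 6.89 (SD, n = 3 each).

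**Figure D2:**
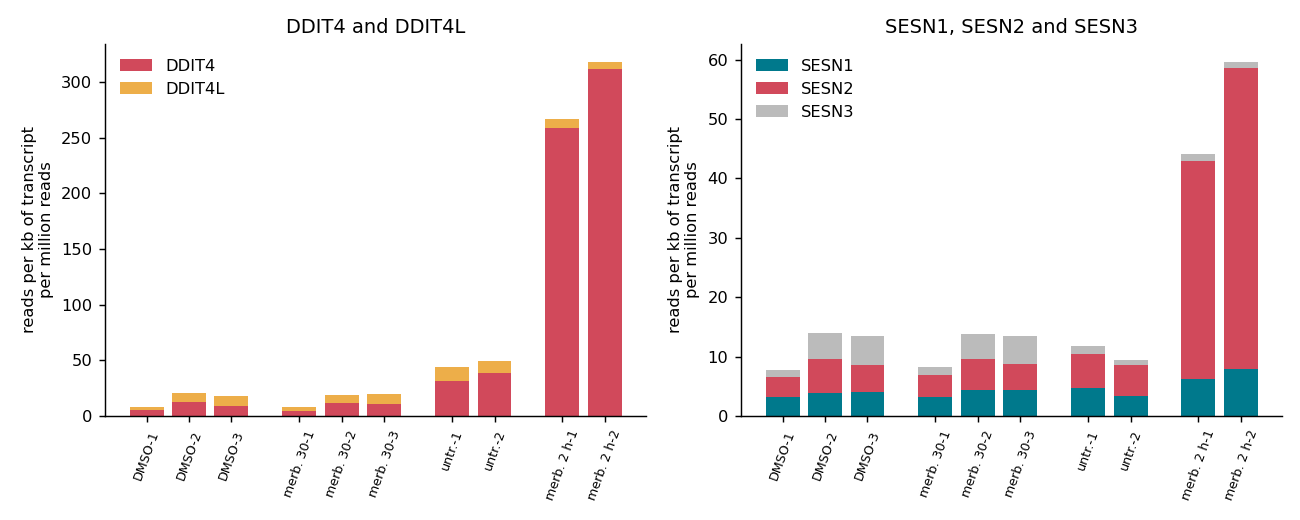
Depth-scaled reads per kilobase of transcript for the DDIT4 pair and the 3 sestrins, as 1 stacked bar per library on linear axes from 0, with 1 colour per gene. After merbarone for 2 h DDIT4 averaged 285 and SESN2 43.7, while DDIT4L, SESN1 and SESN3 averaged between 1.15 and 7.03.

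CASTOR1, on chromosome 22 at 30681106 to 30685611 (GRCh37, minus strand, ENSG00000239282), measured 1.58 and 1.96 RPKM in untreated libraries and 1.31 and 1.19 RPKM after merbarone for 2 h. The treated libraries were below the untreated ones, 1.42-fold by the means of 1.77 ± 0.272 and 1.25 ± 0.0858 (SD, n = 2 each), with a log2 difference of -0.30 ± 0.08 (SE). With 70 to 210 reads a library it was the member with the fewest reads. Another gene of the tables, ENSG00000248751, overlaps it on the same strand, so the assignment of its reads is uncertain. At 30 min CASTOR1 measured 1.45, 1.43 and 1.06 RPKM with DMSO and 1.22, 1.24 and 1.14 RPKM with merbarone, and the groups overlapped.

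TSC1 and TSC2, the subunits of the complex that restrains RHEB, were described together. TSC1, on chromosome 9 at 135766735 to 135822261 (GRCh37, minus strand, ENSG00000165699), measured 1.32 and 1.17 RPKM in untreated libraries and 1.35 and 1.21 RPKM after merbarone for 2 h. Its groups overlapped, with a ratio of means of 1.03. TSC2, on chromosome 16 at 2097968 to 2139492 (GRCh37, plus strand, ENSG00000103197), measured 1.43 and 1.49 RPKM in untreated libraries and 1.72 and 1.83 RPKM after merbarone for 2 h.

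The treated TSC2 libraries were above the untreated ones, 1.22-fold by the means, with a log2 difference of 0.17 ± 0.07 (SE). PKD1 overlaps TSC2 on the other strand, and use of strand in the counting is not given in the sources used here. At 30 min TSC1 measured 1.04, 1.07 and 1.03 RPKM with DMSO and 1.04, 1.21 and 1.05 RPKM with merbarone. TSC2 measured 1.94, 2.24 and 1.95 RPKM with DMSO and 1.81, 2.25 and 2.14 RPKM with merbarone, and both genes overlapped between groups.

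**Figure D3:**
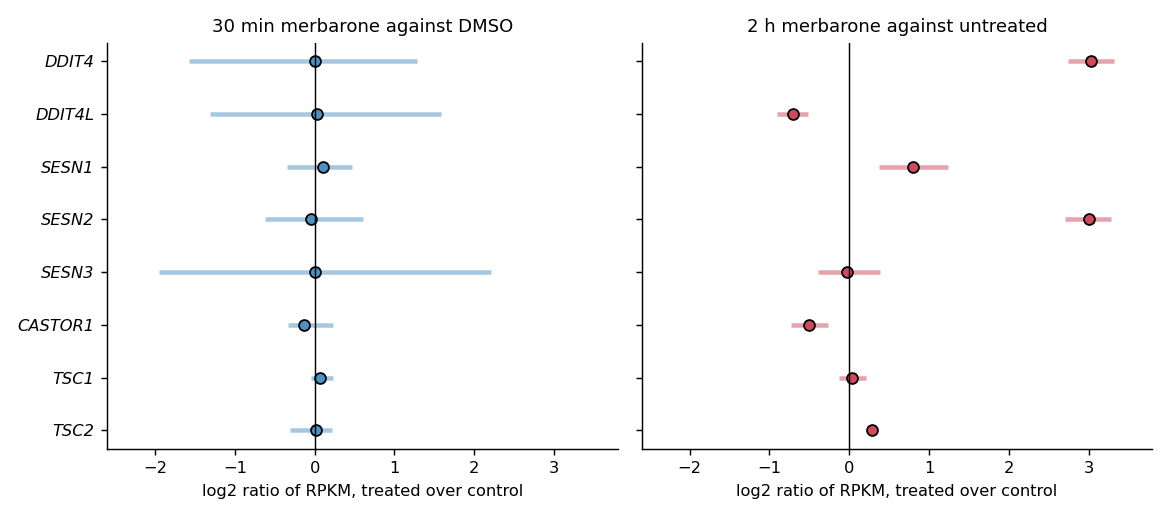
Log2 ratio of mean RPKM, merbarone over its control, for each of the 8 members at 30 min and 2 h; the horizontal lines run from the lowest to the highest ratio of single libraries. At 2 h DDIT4 and SESN2 sit at 3.03 and 3.01, SESN1 at 0.80 and DDIT4L at -0.71, and at 30 min all ranges cross 0.

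Counts across the members were read against all genes. At 2 h limma called 4 of the 6 members that passed the filter of a mean of at least 1 RPKM, DDIT4 and SESN2 higher and DDIT4L and CASTOR1 lower, where 13.1% of 6620 genes tested were called (5.98% higher and 7.1% lower). SESN2 passed that filter only through its treated libraries, and SESN1 and SESN3 did not pass. With the replicate number as a block 5 of 6 were called at 2 h, TSC2 higher in addition, where 32.2% of genes were called. All of these values were known when the members were chosen, so nothing is read from the count. Fitted by voom, a limma method that weights reads by their precision, all 8 members could be tested and 4 were called, DDIT4, SESN1 and SESN2 higher and DDIT4L lower, where 15.4% of genes were called. The CASTOR1 call held in 3 of 11 alternative settings and the DDIT4L call in 10 of 11. The groups did not overlap for 6 of 8 members, where 52.7% of 16810 genes with any value had groups that did not overlap. At 30 min 0 of 5 members that passed the filter were called, where 0.0154% of 6500 genes were called, and 0 of 5 with the replicate number as a block, where 0.123% were called. At 30 min 0 of 8 members had groups that did not overlap, where the share among all genes was 3.0%.

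The 2 experiments were also set against each other in 1 fit. On the log2 scale of RPKM plus 1, the effect at 2 h minus that at 30 min was 2.99 ± 0.57 (SE) for DDIT4 and 2.06 ± 0.17 (SE) for SESN2. That scale understates changes of low values such as those of SESN2. The log2 ratios of the means themselves at 2 h were 3.025 for DDIT4 and 3.01 for SESN2. DDIT4 and SESN2 were the 2 of 6 tested members called, where 1.63% of 6558 genes were called. Nothing is read from these calls either, since the values were known when the members were chosen and SESN2 passed the filter only through its treated libraries at 2 h. Over 17 alternative settings DDIT4 passed the threshold in 8. With the replicate number as a block, 3 of 6 members were called, DDIT4L with them, where 19.1% of genes were called. For DDIT4L the difference was -0.62 ± 0.49 (SE) without the block. With the block the values were 2.99 ± 0.12 for DDIT4, 2.06 ± 0.12 for SESN2 and -0.62 ± 0.08 for DDIT4L (SE). Time, vehicle and experiment differed together between the comparisons and cannot be told apart.

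The control groups themselves had unlike levels of several members. Untreated means over DMSO means were 3.92 for DDIT4, 1.83 for DDIT4L, 1.35 for CASTOR1 and 0.715 for TSC2, whereas SESN3 was 2.91-fold higher with DMSO. That SESN3 ratio rests on DMSO replicates 2 and 3, at 0.609 and 0.699 RPKM. DMSO replicate 1, at 0.148, lay between the untreated values of 0.134 and 0.200. These controls come from separate experiments and the ratios were not tested.

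Within the 30 min experiment, both replicate 1 libraries stood apart from replicates 2 and 3 in the members. The mean of replicates 2 and 3 over that of replicate 1 was 2.42-fold for DDIT4, 2.47-fold for DDIT4L and 3.93-fold for SESN3, and it was 1.38 for SESN2, 1.31 for SESN1, 1.15 for TSC2, 1.05 for TSC1 and 0.915 for CASTOR1. The replicate 1 pair lay below all 4 other libraries for 6 of the 8 members, and for 33.5% of 6500 genes. It lay above all 4 for 22.5% of those genes. TSC2 is among the 6 members with a lowest ratio of only 1.006. Those shares cover only genes past the filter, whereas SESN1, SESN2 and SESN3, which are among the 6, did not pass it at 30 min. The log2 difference was as large as that of DDIT4 in 0.292% of tested genes and as large as that of DDIT4L in 0.523%, against a median size of 0.1. Within each replicate number the log2 ratio of merbarone to DMSO for DDIT4 stayed between -0.16 and 0.25.

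Per kilobase of transcript, the order of the members changed between untreated and treated cells at 2 h. In untreated cells DDIT4 led at 35.05, followed by DDIT4L at 11.5, TSC2 at 9.39, TSC1 at 7.72, SESN2 at 5.43, CASTOR1 at 5.33, SESN1 at 4.05 and SESN3 at 1.17, and only SESN2 and CASTOR1 overlapped as neighbours. After merbarone for 2 h DDIT4 at 285 was followed by SESN2 at 43.7, TSC2 at 11.4, TSC1 at 7.93, SESN1 at 7.03, DDIT4L at 7.02, CASTOR1 at 3.76 and SESN3 at 1.15. There TSC1 overlapped SESN1, and SESN1 overlapped DDIT4L. With DMSO for 30 min TSC2 led at 13.15, ahead of DDIT4 at 8.94, and each member overlapped its neighbours in the order down to SESN3 at 3.40. With merbarone for 30 min TSC2 at 13.3 and DDIT4 at 8.97 led again, SESN3 at 3.41 was lowest, and all neighbours overlapped.

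The other components of the pathway were followed in 4 lists. Of 81 such genes in the tables, 45 passed the filter at 2 h, of which limma called 0 higher and 5 lower, with 7.1% of all tested genes called lower. The median log2 difference of these 45 genes was -0.0978, and that of all genes -0.0475. At 30 min 0 of 43 tested were called. With voom, 79 components were tested at 2 h and 3 were called higher and 11 lower, where 8.82% and 6.61% of 13440 genes were called higher and lower.

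Among the amino acid sensing and Rag genes, 2 of 16 fell and 0 rose at 2 h, where 7.1% of all genes tested were called lower and 5.98% higher. LAMTOR2 and LAMTOR5 are subunits of the Ragulator complex that anchors the Rag GTPases at the lysosome. They fell by 0.59 ± 0.11 and 0.44 ± 0.09 (SE) in log2 units on the scale of RPKM plus 1. Their limma adjusted p-values were 0.00981 and 0.0155. LAMTOR2 measured 7.45 ± 1.00 RPKM in untreated cells and 4.61 ± 0.342 after merbarone for 2 h (SD, n = 2 each). Of 9 growth factor and energy genes, 1 fell: IRS1, an adaptor of the insulin receptor, by 0.23 ± 0.06 (SE, limma adjusted p = 0.0426). IRS1 measured 1.21 ± 0.0345 RPKM in untreated cells and 0.875 ± 0.0733 after merbarone for 2 h (SD, n = 2 each). The scale of RPKM plus 1 understates such a fall. Of 5 tested genes of the mTOR complexes, 1 fell: AKT1S1, which encodes the mTORC1 inhibitor PRAS40, by 0.37 ± 0.10 (SE, limma adjusted p = 0.0393).

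Of 15 substrates and effectors, 1 fell at 2 h, where 7.1% of all genes tested were called lower. EIF4EBP2, a translational repressor that mTORC1 phosphorylates, fell by 0.45 ± 0.10 (SE, limma adjusted p = 0.0214), from 11.8 ± 1.01 to 8.36 ± 0.132 RPKM (SD, n = 2 each). These calls were marginal for several genes. The AKT1S1 call held in 6 of 11 alternative settings, that of EIF4EBP2 in 7 of 11 and that of IRS1 in 5 of 9, and scaling each library to its median left 3 components lower and 1 higher.

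Genes that share known inducers with DDIT4 and the sestrins were counted in 6 further lists, and at 30 min 0 of their genes were called in limma without a block. With the replicate number as a block, DUSP1 rose at 30 min by 1.49 in log2 units (limma adjusted p = 0.0188), from 8.34 ± 5.36 RPKM with DMSO to 23.5 ± 8.26 with merbarone (SD, n = 3 each). ATF3, which was below the filter at 30 min, measured 0.0498 ± 0.00163 and 0.326 ± 0.154 RPKM (SD, n = 3 each) and was called by voom with the block (limma adjusted p = 0.0018) but not by voom alone. Among 8 tested inducing factors, 2 rose at 2 h, where 5.98% of all genes tested were called higher. DDIT3, the stress factor CHOP, rose from 7.90 ± 0.946 to 34.2 ± 3.19 RPKM (SD, n = 2 each, limma adjusted p = 1.74e-05). CEBPB, a basic leucine zipper factor, rose from 17.0 ± 1.82 to 45.4 ± 4.39 RPKM (SD, n = 2 each, limma adjusted p = 0.000169). ATF4 itself measured 49.5 ± 5.46 and 63.0 ± 4.32 RPKM (SD, n = 2 each) and was not called (limma adjusted p = 0.0962), though it was called higher in 5 of 11 alternative settings, voom and the replicate block among them.

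Of 14 tested ATF4 targets, 13 rose and 0 fell at 2 h, with a median log2 difference of 1.01, where 5.98% of all genes were called higher. CHAC1, which degrades glutathione, went from 0.448 ± 0.0657 to 26.7 ± 4.23 RPKM, and SLC3A2, the partner chain of the amino acid transporter SLC7A5, from 2.78 ± 0.326 to 8.93 ± 0.724 RPKM (SD, n = 2 each). ATF3, a stress transcription factor, went from 0.108 ± 0.0203 to 2.69 ± 0.642 RPKM (SD, n = 2 each). Their limma adjusted p-values were 1.3e-07, 5.16e-05 and 1.8e-05. Of the 13 genes called, 5 averaged under 1 RPKM in untreated cells and passed the filter only through the treated libraries, as SESN2 did: CHAC1, ATF3, ASNS, PCK2 and GPT2. Such genes had to be higher, so the filter adds to this count and raises the median. Of the 9 tested targets with an untreated mean of at least 1 RPKM, 8 were called higher.

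Of 15 tested p53 targets, 7 rose and 0 fell at 2 h, with a median of 0.335. Over all genes tested at 2 h, 5.98% were called higher and 7.1% lower. Of the 7, 1 averaged under 1 RPKM in untreated cells and passed the filter only through its treated libraries. GADD45A, PLK3 and BTG2, genes of growth arrest and stress signalling, rose by 2.25 ± 0.13, 2.06 ± 0.11 and 1.84 ± 0.14 (SE). Their limma adjusted p-values were 1.74e-05, 1.54e-05 and 8.34e-05. Rises and falls in this list and those below are in log2 units on the scale of RPKM plus 1. Of 10 HIF1 targets, VEGFA rose by 1.08 ± 0.10 and ADM fell by 0.79 ± 0.11 (SE, limma adjusted p = 0.000217 and 0.0028), and the median was 0.0259. Of 7 glucocorticoid receptor targets, 4 rose and 1 fell, with a median of 0.659. Of the 4, 1 averaged under 1 RPKM in untreated cells and passed the filter only through its treated libraries. The median is that gene's own value. DUSP1, NFKBIA and TSC22D3 rose by 1.91 ± 0.15, 1.52 ± 0.11 and 1.04 ± 0.08 (SE), with limma adjusted p-values of 9.32e-05, 5.16e-05 and 8.01e-05, and DUSP1 and NFKBIA are also known as early-response genes. Of 8 FOXO targets, KLF6 and BCL6 rose, by 1.15 ± 0.11 and 0.44 ± 0.07 (SE, limma adjusted p = 0.000228 and 0.00601). BCL6 went from 1.67 ± 0.0192 to 2.63 ± 0.0668 RPKM (SD, n = 2 each), a change that the scale of RPKM plus 1 understates. SESN3, a member with the same known inducer, did not separate from its controls.

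**Figure D4:**
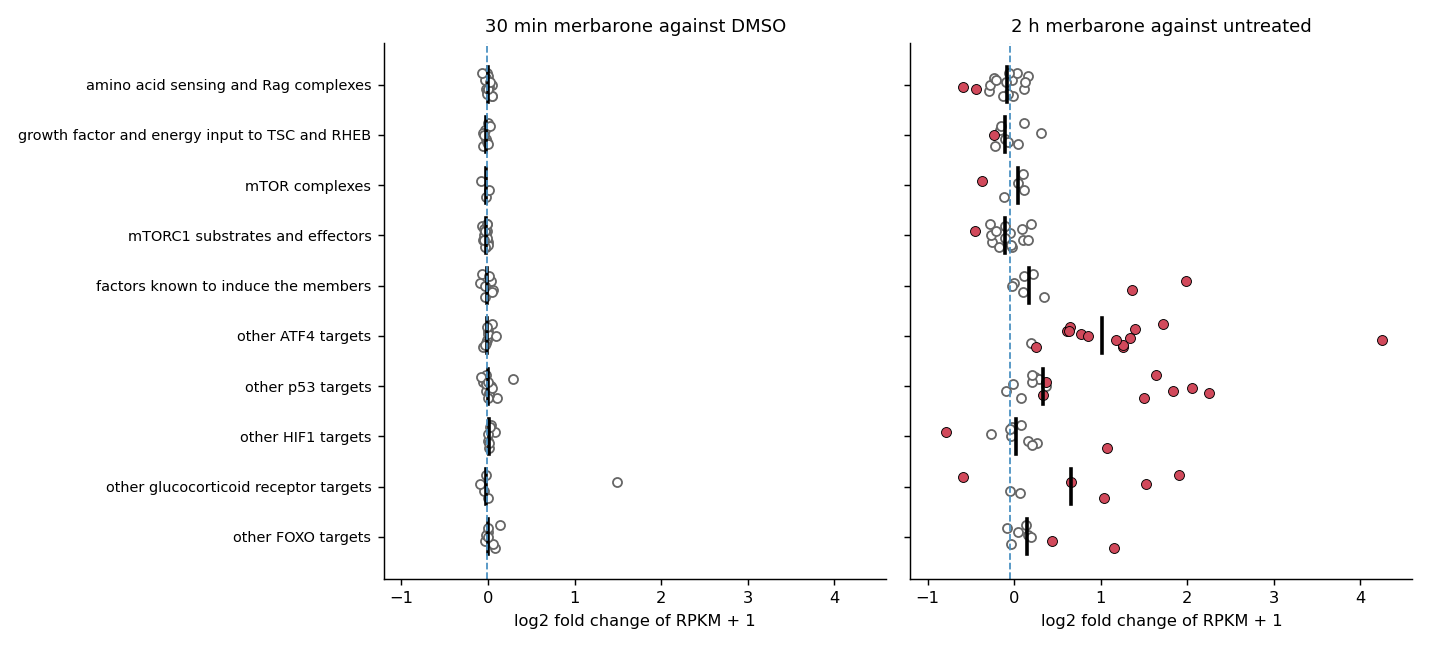
Log2 difference at 30 min and at 2 h on the scale of RPKM plus 1 for each tested gene of the 10 lists, with filled points for genes called by limma, a black bar for the list's median and a dashed line for the median of all genes. At 2 h 13 of 14 ATF4 targets are called higher, the medians of the 4 lists of pathway components lie near 0 with 5 of their genes called lower, and at 30 min 0 genes are called, with DUSP1 at 1.49 as the open point furthest right.

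Likeness to DDIT4 and SESN2 was measured by Pearson's r over the 10 libraries among 6558 genes, after subtracting the mean of the experiment's own control group. The 5 genes most like DDIT4 were TSSK6 (r = 0.994), CARS1 (0.991), RAE1 (0.989), PIM1 (0.988) and BCL6 (0.986), and SESN2 reached 0.966. Those most like SESN2 were ASNS (0.997), BBC3 (0.996), ETS2 (0.9955), DDIT3 (0.994) and ENSG00000228804 (0.994). Both genes are far higher in the 2 libraries with merbarone for 2 h than in the other 8, and libraries share their experiment and depth, so the coefficients are a description.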

How the data were processed

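For each of the 10 libraries 150 ng of total RNA went into a TruSeq Stranded mRNA preparation, per the labels' protocols. The authors deposited RPKM values per Ensembl gene, 1 table per library, per the file headers, without log transformation or pooling of replicates. The submitters' processing notes name hg19, Bowtie 1.2.0 and deepTools 2.4.1, and the read counter, the annotation and use of strand are not given in the sources used here. Symbols were matched for 19637 of 20327 identifiers.

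Whole reads were recovered from the steps of the RPKM values for 17680 of 17680 genes with a value above 0 (100%, within 0.0001 reads). The smallest whole numbers that fit were taken, so the share says only that a fit was found. Reads with a common factor in all libraries would come out too low. The gene length behind the values was within 1% of the genomic span for 74.9% of 17234 genes. Levels between genes therefore used recovered reads per kilobase of 1 annotated transcript, scaled to the depth of the library. Totals ranged from 11956652 to 38225538 reads, and their counting error covers sampling only.

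Values of log2(RPKM + 1) were fitted with lmFit and eBayes with a trend (limma 3.58.1 under R 4.3.3) and tested two-sided, with Benjamini-Hochberg adjustment over all genes tested, a threshold of 0.05 and a minimum mean of 1 RPKM. Each experiment was fitted on its own, and their difference over all 10 libraries. Alternatives were a pseudocount of 0.1, no filter, median scaling, quantile normalization, a replicate block, voom on recovered reads with a minimum mean of 10, with and without the block, and leaving out each library. Replicate numbers paired the 30 min samples by the data: same-numbered libraries deviated together, with correlations of 0.925, 0.646 and 0.605, though the labels name no shared preparation. The recovery and the fits were tested on simulated data, drawn without the pairing of replicate numbers. Tables were made in Python 3.11.15 with NumPy 2.4.6 and pandas 2.3.3, and plots in matplotlib 3.10.9.

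The members and the gene lists were chosen with earlier results of these data known. All 8 members are named, as are up to 3 called genes of each list with the largest absolute log2 difference in a comparison, and the 5 genes most correlated with DDIT4 and with SESN2. CASTOR2, CASTOR3P, TXNIP and the marker PECAM1 were not matched to a symbol and were not used here. Promoter windows came from RefSeq's GRCh38.p14, and coordinates of genes from a GRCh37 annotation.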

Additional observations from a re-analysis of the deposited data

Results flagged for a closer look

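The effect of merbarone differed between 2 h and 30 min for 107 of 6558 genes in limma's contrast over all 10 libraries, and it was the test of the difference that marked each gene named here. Differences here are in log2 units on the scale of RPKM plus 1, which understates changes of low values. Among genes that share known inducers with the members, the effect at 2 h exceeded that at 30 min by 4.35 for CHAC1. The excess was 1.95 for DDIT3, 1.41 for SLC3A2 and 1.28 for ASNS. It was 2.27 for GADD45A, 1.77 for BTG2 and 1.77 for PLK3 among the p53 targets, and 1.06 for VEGFA among the HIF1 targets. For NFKBIA the excess was 1.56, for TSC22D3 1.01, for KLF6 1.06 and for BCL6 0.47. Over 17 alternative settings the calls of GADD45A and BCL6 held in 11, that of KLF6 in 14 and that of BTG2 in 16, and that of ASNS in all 15 settings in which it was tested. The other calls named here held in 17. CHAC1 and ASNS averaged under 1 RPKM in every group except merbarone for 2 h. They passed the filter only through those libraries, so the filter itself favours a positive difference for them. Of the 4 lists of pathway components, 0 of 43 tested genes were called in this contrast, and 3 higher and 8 lower with the replicate block, where 7.69% and 11.5% of all genes were called higher and lower. Time, vehicle and experiment cannot be told apart in any of these differences.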

How the results depend on the processing

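At 30 min 1 gene was called, 2 under median scaling, 2 under quantile normalization, 0 without the filter (where 208 genes had p under 0.05 before adjustment), 8 once the replicate block was added and 13 with voom and the block. Leaving out 1 library gave 0 to 2, with 0 without DMSO replicate 2 or merbarone replicate 2. At 2 h 866 genes were called, 53 without the filter, 2129 with the replicate block, 2074 with voom and 3515 with voom and the block. Leaving out 1 library gave 328 without merbarone replicate 1, 398 without merbarone replicate 2, 1311 without untreated replicate 2 and 2464 without untreated replicate 1, and then the lone library is assumed to vary like the other group. The share of calls that were higher was 45.7%, 62.6% under median scaling, 57.2% with voom and 90.6% without the filter. For the difference 107 genes were called, 361 without the filter, 1255 with the replicate block, 69 with voom and 2090 with voom and the block, and 38 to 86 without 1 library, with 62 without merbarone 30 min replicate 2 or 3, 47 without untreated replicate 2, and 42 and 38 without merbarone 2 h replicate 1 and 2. Its higher share was 77.6%, 93.0% under median scaling, 88.6% under quantile normalization and 40.2% with the block. For each of these shifts the cause was not tested. At 2 h the replicate numbers gave only 2 pairs, with a correlation of 0.3, and the blocked fit had 1 residual degree of freedom. Of 40 called effects of members and named genes, 0 changed sign under a setting run, and sign changes among the other called genes were not counted. Among the members' values, 271 stayed within the spread between replicates or kept their call and 29 moved. Staying within that spread did not mean that a call was kept. The CASTOR1 call at 2 h held in 3 of 11 settings, and that of DDIT4 in the difference in 8 of 17. CASTOR1 had the fewest reads of the members, 70 to 210 a library.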
